A study of Rattus norvegicus with 10 samples.

Results

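The ionotropic glutamate receptor subunits of the NMDA class (Grin1, Grin2a, Grin2b, Grin2c and Grin2d) and of the AMPA class (Gria1, Gria2, Gria3 and Gria4) were examined in the hippocampus of young rats fed solid or powdered feed. Every probe set that the platform annotation assigns to exactly 1 of these 9 symbols was taken, whatever its values. This gave 18 probe sets of the 31042 analysed, at least 1 for each of the 9 genes. Male Wistar rats had all eaten powdered feed for a short acclimatization, and then took solid chow (C-group) or powder chow (P-group) for 8 days, with an age of 4 weeks in the labels of both groups. Hippocampi were dissected by hand, and 100 ng of total RNA from each rat went onto its own Affymetrix rat expression array, with 5 rats in each group. The comparison asks whether chewing solid feed in this period was accompanied by a different level of hippocampal mRNA.

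Glutamate is the main excitatory transmitter of the hippocampus. AMPA receptors carry most of the fast current at its synapses, while NMDA receptors open only when glutamate binds and the membrane is depolarized, and then let calcium in. That calcium entry starts the lasting change in synaptic strength on which several kinds of hippocampal learning depend. Grin1 encodes the subunit that every conventional NMDA receptor needs, and the Grin2 genes encode the partners that set its kinetics. In rodents Grin2b predominates early after birth and Grin2a gains in share as the synapses mature. Of the AMPA subunits, the edited product of Gria2 makes the channel nearly impermeable to calcium. As the tissue was taken whole, fewer cells of a type and less RNA in each cell cannot be told apart.

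The values are log2 expression values from qFARMS, a summary based on factor analysis, which holds a probe set at an almost fixed level where it finds little variation in common among its probes. A probe set is called variable here when its standard deviation (SD) over the 10 rats exceeded 0.01, and near-constant otherwise. Of the 18 probe sets, 6 were variable (33.3%), against 9.36% of all 31042. They belonged to Grin1, Grin2a, Grin2b, Gria3 and Gria4, with Gria3 represented by a pair. The other 12 had SDs from 0.000127 to 0.000378, so the files hold almost no difference between rats for them, and the other 4 genes had no variable probe set at all.

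Medians of the arrays lay between 7.0 and 7.02, and several arrays stood apart. C1 ranked first in 53.5% of all variable probe sets, and in 1 of the 6 considered here. P2 was 2.50 log2 units above the mean of the 10 rats over 6 variable probe sets of pineal and photoreceptor markers, a set that lay between -0.33 and -0.21 in the other 9. Choroid plexus markers were high in C1, C2, C5, P3 and P5 (0.29 to 1.65 above the mean) and low in the other 5 rats (-1.32 to -0.88). Without C1, rank products called 79 probe sets of the whole array higher, against 620 with all rats. Markers of hippocampal pyramidal and granule cells, among them Prox1 and Camk2a, were measured well above these medians, as their 10 probe sets averaged 9.18 to 9.48 in C-group rats and 9.23 to 9.42 in P-group rats.

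Grin1, Grin2a and Gria3 were each called higher in the C-group at 1 probe set by rank products, the method of the study, while no probe set of the 9 genes passed limma, which weighs a difference against the spread between rats. Rank products takes every pairing of 1 C-group rat with 1 P-group rat, 25 in all, and ranks the probe sets by their difference in each, and a call means a false discovery rate (FDR) under 0.05. It called 3 of the 18 probe sets higher and none lower, where 2.0% of all probe sets were called higher and 0.416% lower. As every probe set called higher was a variable one, the closer comparison is with them: 3 of 6 here and 620 of 2904 in all (21.3%). The median difference of the 6 was 0.145 log2 units, against 0.0657 over all variable probe sets, and 5 of the 6 differences were positive, against 68.3% in all. When rank products was run on the variable probe sets alone, none of the 6 was called, and the FDR of Grin2a was 0.689, that of Gria3 0.920 and that of Grin1 0.968. In limma 0 of 31042 probe sets passed an adjusted p under 0.05 (0% of all), and 0 of 18 here and 2.95% in all had an unadjusted p under 0.05. In none of the 18 did the groups separate without overlap, against 0.445% of all probe sets.

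**Figure D1:**
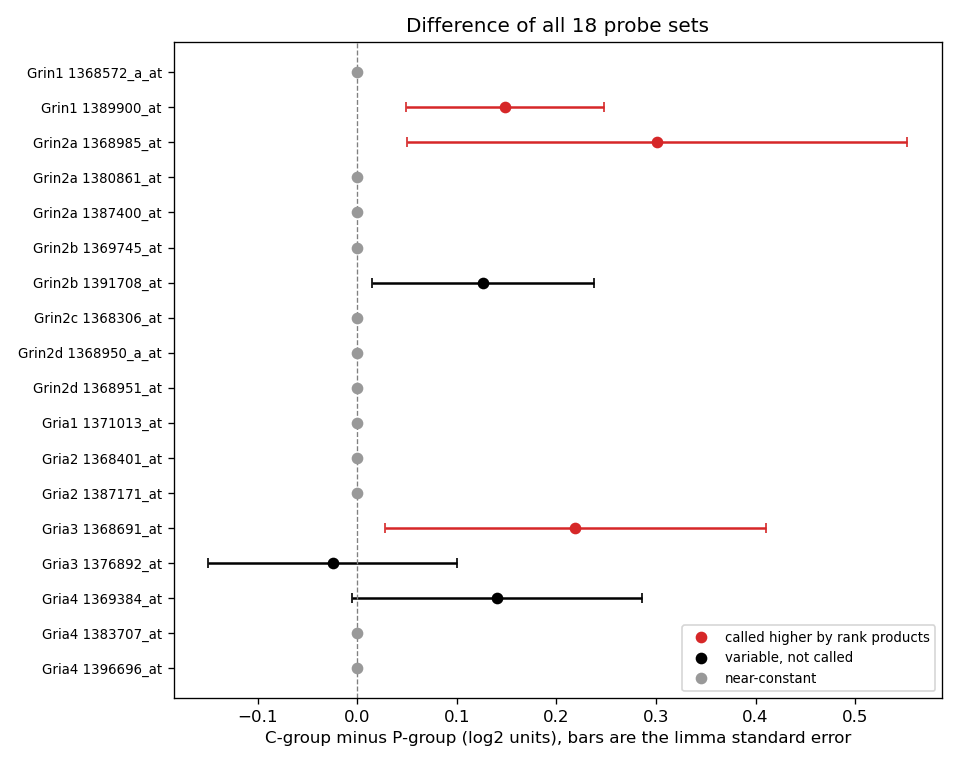
Difference of each of the 18 probe sets, C-group minus P-group, in log2 units on the horizontal axis, with the limma standard error as bars and 1 row for each probe set. Red points are the 3 probe sets called higher by rank products, black points the other 3 variable ones and grey points the 12 near-constant ones, whose differences stay within 0.00031 of 0.

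Grin1, the obligatory NMDA subunit, was measured by a pair of probe sets, of which 1389900_at varied. Its values were 8.02, 7.99, 7.99, 8.03 and 8.22 in C1 to C5, against 7.87, 7.63, 8.20, 7.95 and 7.85 in P1 to P5. The C-group rats lay close together apart from C5, and 4 of the 5 P-group rats lay below all of them, with P3 the exception. The mean was 8.05 ± 0.10 in the C-group and 7.90 ± 0.21 in the P-group (SD, n = 5 each). They differed by 0.15 (standard error 0.10), or 1.11-fold (limma adjusted p = 0.927, rank products FDR 0.0308). The difference was 0.0806 without P2, the lowest rat, 0.225 without P3 and 0.106 without C5, and the call was lost in 7 of the 10 sets that leave out 1 rat (each C-group rat, P2 or P5), with an FDR of up to 0.108 (without C5). P2 is also the rat with the pineal and photoreceptor markers, whose part in this value was not tested. The other probe set, 1368572_a_at, read 9.64 in all 10 rats.

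The RefSeq promoter table on the GRCr8 assembly held 4 of the 9 genes (Grin1, Grin2c, Grin2d and Gria4). That of Grin1, at chr3:28528705-28529004 on the minus strand, is shown because it is the one of a called gene, as 300 bases that lie mostly upstream of the start of the gene. Capitals mark GGGCGG (the GC box bound by Sp1) and TGACG (the core of the cyclic AMP response element), searched on both strands, so that CGTCA is the second motif on the opposite strand.

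Grin1: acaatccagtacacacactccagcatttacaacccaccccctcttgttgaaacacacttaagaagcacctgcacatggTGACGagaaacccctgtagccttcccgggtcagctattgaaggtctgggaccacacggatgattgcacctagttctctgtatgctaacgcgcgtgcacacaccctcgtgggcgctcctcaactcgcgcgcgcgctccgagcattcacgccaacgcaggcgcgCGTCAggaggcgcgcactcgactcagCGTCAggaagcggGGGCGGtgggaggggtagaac

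The window held 1 GC box and 3 matches of the response element core, with no overlap between matches, and its GC content was 59.7%, against a median of 51.7% over all 33469 promoters of the table. Of those promoters, 33.1% held at least 1 GC box and 21.2% at least 1 core. The share with 3 matches of the core was not counted. The windows of Grin2c, Grin2d and Gria4 held neither set of letters, with GC contents of 60.3%, 60.7% and 60.3%. A match is a run of letters only, and binding was not measured.

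Grin2a, the NMDA subunit that gains in share as the hippocampus matures, showed the largest difference of the 18 probe sets, at 1368985_at. It was 8.42, 8.16, 8.13, 7.87 and 7.67 in C1 to C5 and 8.45, 7.99, 7.59, 7.11 and 7.61 in P1 to P5. The highest rat of all was P1, just above C1, and the lowest was P4. The mean was 8.05 ± 0.29 in the C-group and 7.75 ± 0.50 in the P-group (SD, n = 5 each). They differed by 0.30 (standard error 0.25), or 1.23-fold (limma adjusted p = 0.927, rank products FDR 0.00867). Rank products called it in all 10 sets with 1 rat left out, although the FDR came to 0.0495 without P4 and the difference to 0.14. Without C1 the difference was 0.208 (FDR 0.0492), without P2 0.362 and without P1 0.477. The other 2 probe sets of Grin2a, 1380861_at and 1387400_at, averaged 8.99 and 7.38 in each group.

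Grin2b encodes the NMDA subunit that predominates in the immature hippocampus, and its probe set 1391708_at followed nearly the same order of rats as Grin2a. The values were 8.98, 8.81, 8.81, 8.69 and 8.54 in C1 to C5 against 8.98, 8.60, 8.60, 8.50 and 8.50 in P1 to P5. P2 to P5 lay close to C5, and P1 lay at the level of C1. The mean was 8.76 ± 0.16 in the C-group and 8.64 ± 0.20 in the P-group (SD, n = 5 each), with a difference of 0.13 and a standard error of 0.11 (limma adjusted p = 0.927, rank products FDR 0.0746), and the probe set was not called. Without P1 it was called (FDR 0.0142, difference 0.213), and it was also called when rats were paired by replicate number (FDR 0.0309). Without C1 the difference was 0.0739. The second probe set of Grin2b, 1369745_at, averaged 7.27 in each group.

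Gria3, an AMPA subunit of pyramidal cells that pairs with the product of Gria2, had 2 variable probe sets, and they disagreed. Probe set 1368691_at was 9.26, 9.18, 9.11, 8.97 and 8.53 in C1 to C5 and 9.37, 8.75, 8.71, 8.60 and 8.52 in P1 to P5. P1 was again the highest rat and C5 and P5 the lowest, so that 4 of the 5 C-group rats lay above 4 of the 5 P-group rats. The mean was 9.01 ± 0.29 in the C-group and 8.79 ± 0.335 in the P-group (SD, n = 5 each). They differed by 0.22 (standard error 0.19), or 1.16-fold (limma adjusted p = 0.927, rank products FDR 0.0260). Its call was lost in 5 of the 10 sets with 1 rat left out, namely without C1, C2, C3, C4 or P5, with an FDR of up to 0.0890. The difference ran from 0.152 without P5 to 0.363 without P1, and was 0.156 without C1 (FDR 0.081) and 0.338 without C5.

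The second Gria3 probe set, 1376892_at, gave 10.12, 10.66, 10.70, 10.84 and 10.73 in C1 to C5 against 10.69, 10.54, 10.65, 10.60 and 10.67 in P1 to P5. C1 was the lowest of the 10 rats here, whereas it was second highest at the other probe set. The mean was 10.61 ± 0.28 in the C-group and 10.63 ± 0.06 in the P-group (SD, n = 5 each), and the difference of -0.02 had a standard error of 0.125 (limma adjusted p = 0.978, rank products FDR 0.105 for higher and 0.952 for lower). Without C1 the difference was 0.0978, the opposite sign. Over the 10 rats the 2 probe sets of Gria3 had a Pearson r of -0.29 and a Spearman rho of -0.10, and an r of 0.22 without C1 and P1. Across the other genes of the array with 2 variable probe sets, the median r of 300 such pairs was 0.85, with quartiles of 0.68 and 0.94.

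Gria4 encodes an AMPA subunit that is more prominent early in development and in interneurons. Its probe set 1369384_at was 7.13, 7.03, 6.41, 6.50 and 6.64 in C1 to C5 and 6.78, 6.62, 6.59, 6.52 and 6.50 in P1 to P5. C1 and C2 were the highest rats and C3 and C4 the lowest, so the P-group lay within the range of the C-group. The mean was 6.74 ± 0.32 in the C-group and 6.60 ± 0.11 in the P-group (SD, n = 5 each). They differed by 0.14 (standard error 0.15, limma adjusted p = 0.927, rank products FDR 0.219). The difference was 0.0437 without C1, 0.0697 without C2 and 0.222 without C3, and no set with 1 rat left out gave a call. The other 2 probe sets of Gria4, 1383707_at and 1396696_at, read 8.17 and 7.61 in each group.

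**Figure D2:**
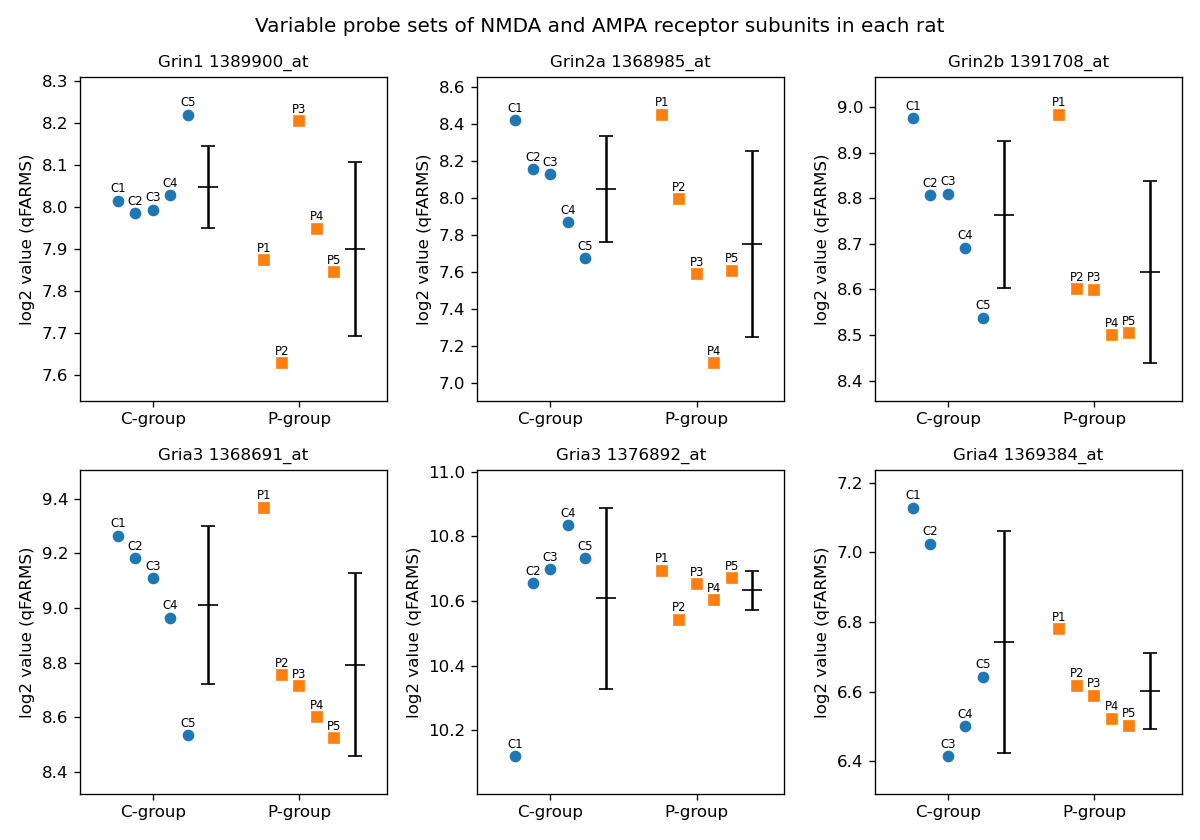
Log2 value of the 6 variable probe sets in each rat, with C-group rats as blue circles on the left and P-group rats as orange squares on the right of each panel, and black bars for the mean and SD of each group (n = 5). The groups overlap in every panel. P1 is the highest P-group rat in every panel but that of Grin1, and C1 is far below the other rats at Gria3 1376892_at.

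Gria1 and Gria2, which encode the main AMPA subunits of hippocampal pyramidal cells, and Grin2c and Grin2d, which encode NMDA subunits better known from the cerebellum and from early development, were held by near-constant probe sets alone. Gria1 read 9.58 in every rat at its single probe set, 1371013_at. Gria2 read 12.00 at 1368401_at and 11.05 at 1387171_at in each group. Grin2c read 8.91 at 1368306_at, and Grin2d 6.08 at 1368950_a_at and 6.44 at 1368951_at. The 12 near-constant probe sets differed between the groups by at most 0.00031 log2 units, with 7 differences above 0 and 5 below, and spanned at most 0.00111 units over the 10 rats. These values say next to nothing about a difference of these 4 genes in either direction.

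Grin2b, Grin2a and the called probe set of Gria3 varied together over the 10 rats. Pearson's r over the 10 rats was 0.98 between Grin2b 1391708_at and Gria3 1368691_at (rho 0.95), 0.91 between Grin2a 1368985_at and Grin2b (rho 0.94), and 0.88 between Grin2a and Gria3 (rho 0.89). After the mean of each group was subtracted these were 0.97, 0.89 and 0.86, and without the 2 rats farthest from the median they were 0.98, 0.93 and 0.90. All 3 were above their mean over the 10 rats in C1, C2, C3 and P1 and below it in C5, P3, P4 and P5. Among all 2904 variable probe sets Grin2b and this Gria3 probe set were the closest to each other, while 1.38% had an r to Grin2a as high as that of Grin2b, itself included, and 4.75% had an r to Gria3 as high as that of Grin2a. Grin1 had no such relation, with r from -0.20 to 0.14 to the other 5 probe sets, and Gria4 had an r of 0.59 to 0.64 to the 3. These are descriptions over 15 pairs from the same 10 arrays and were not tested.

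**Figure D3:**
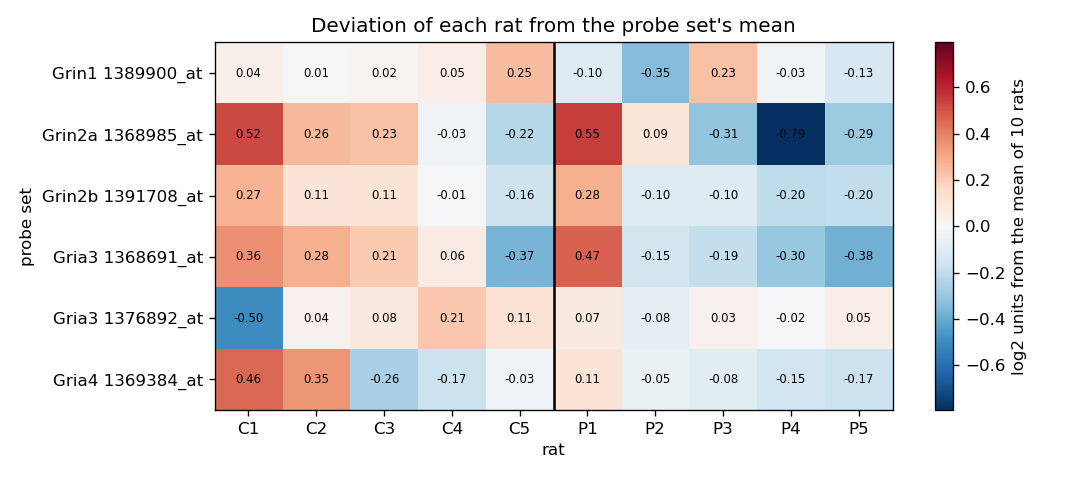
Deviation of each rat from the mean of the 10 rats, in log2 units, for the 6 variable probe sets (rows), with C1 to C5 left of the black line and P1 to P5 right of it. Red marks a positive and blue a negative deviation. Grin2a, Grin2b and Gria3 1368691_at share a pattern with C1, C2, C3 and P1 in red and C5, P3, P4 and P5 in blue. Grin1 is red in C5 and P3 and bluest in P2.

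Markers of other cell types shared part of this order. The 4 variable of 13 astrocyte probe sets (6 of 6 listed genes measured) deviated on average by 0.34, 0.13, -0.03, 0.03 and -0.06 in C1 to C5 and by 0.21, -0.04, -0.11, -0.26 and -0.21 in P1 to P5, with r of 0.91, 0.92 and 0.88 to Grin2a, Grin2b and Gria3 1368691_at over the 10 rats, and of 0.88, 0.83 and 0.81 without the 2 farthest rats. Aqp4, the water channel of astrocytes, led them, at 10.04, 9.47, 8.98, 9.04 and 8.63 in C1 to C5 and 9.65, 9.08, 8.82, 8.40 and 8.59 in P1 to P5. Gfap went the other way in C1, where it was lowest at 10.71. The 6 variable of 14 neuron marker probe sets deviated by -0.06 to 0.36 in C-group rats and by -0.14 to 0.12 in P-group rats, with C1 and P1 highest, and had r of 0.72, 0.85 and 0.76 to the 3. Over all its probe sets the astrocyte list averaged 9.24 to 9.36 in C-group rats and 9.18 to 9.32 in P-group rats, and the neuron list 10.38 to 10.56 in C-group rats and 10.35 to 10.46 in P-group rats. Choroid plexus markers had r of 0.04, 0.02 and -0.09 to the 3 probe sets. With Grin1 they had an r of 0.57 (0.42 without the 2 farthest rats), meningeal markers one of 0.52 (0.65) and pineal and photoreceptor markers one of -0.72 (-0.45). Gria4 had an r of 0.57 (0.03) to choroid plexus markers and of 0.69 (0.40) to meningeal markers. Its r was 0.80 to both the neuron (0.50) and the astrocyte markers (0.57). Pyramidal and granule cell markers ran against the 3 probe sets, with r of -0.53, -0.42 and -0.40 (-0.56, -0.12 and -0.18 without the 2 farthest rats). The part of cell types in the differences of the receptor genes was not tested.

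Outside the receptor family, the closest followers over the 10 rats, by Pearson's r among all variable probe sets with 1 gene symbol, were as follows, with no test since they were picked for their r. Grin1 was followed most closely by Epb41l1, a cytoskeletal protein that binds AMPA receptor subunits (r = 0.959), and by Adam22 (0.940) and Abcc5 (0.890). For Grin2a they were the receptor gene Epha4 (0.974), Nav1 (0.954) and Atrx (0.953). For Grin2b, after Gria3, they were Zranb2 (0.966) and Sgip1 (0.963), and for Gria3 1368691_at, after Grin2b, the synaptic vesicle protein gene Sv2b (0.963) and C1ql3 (0.954). Gria3 1376892_at was followed by Chmp2a (0.974), Ap3b2 (0.965) and Unc80 (0.957), and Gria4 by the potassium channel gene Kcnd3 (0.957), Gap43 (0.947) and Mindy2 (0.944).

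The near-constant probe sets followed the rats in part as the variable ones did. At Grin2b, 1369745_at with its SD of 0.000172 had an r of 0.91 to the variable probe set with its SD of 0.184. At Gria4 the r was 0.91 for 1396696_at and 0.58 for 1383707_at, and at Grin2a 0.83 for 1387400_at and 0.53 for 1380861_at, whereas the pair of Grin1 probe sets had 0.14. Without the 2 rats farthest from the median of the variable probe set these were 0.81, 0.81, 0.51, 0.53, 0.17 and 0.32. The pair of near-constant Grin2d probe sets had an r of 0.87 and that of Gria2 0.85. Over the other genes, 1650 pairs of a variable and a near-constant probe set had a median r of 0.38 with quartiles of -0.22 and 0.73. For a variable and a near-constant probe set of any genes the median was 0.05. The size of a difference cannot be read from a near-constant probe set.

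**Figure D4:**
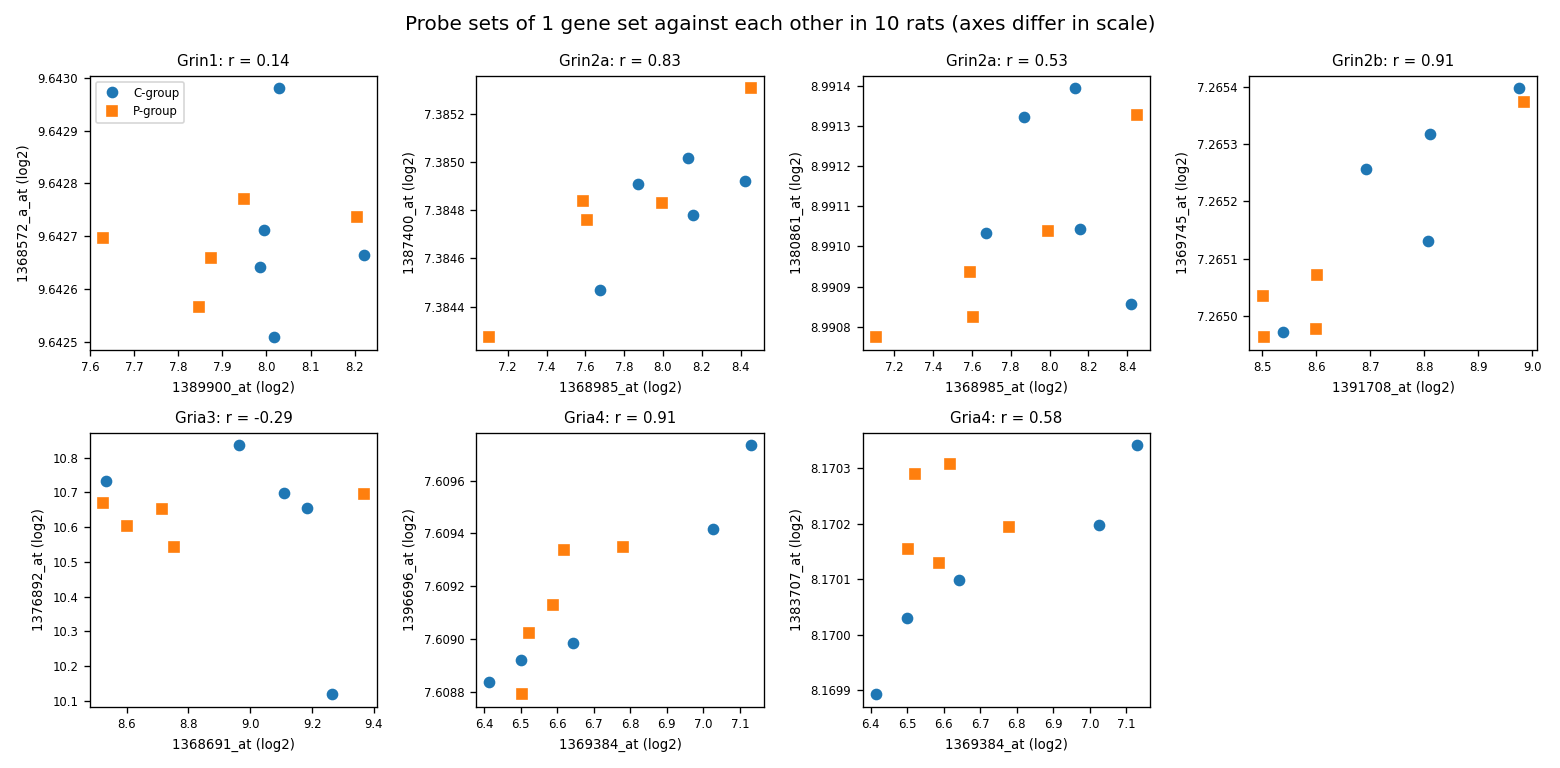
Log2 values of a pair of probe sets of 1 gene in the 10 rats, for each of the 7 pairs with at least 1 variable member, with C-group rats as blue circles and P-group rats as orange squares. The vertical axes span under 0.002 units in all panels but that of Gria3. The points of Grin2b (r = 0.91) and Gria4 1396696_at (r = 0.91) lie along a line, and those of Grin1 (r = 0.14) and Gria3 (r = -0.29) do not.

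The proteins that work with these receptors were counted by group, beside 2.0% called higher and 0.416% called lower of all probe sets. Of the variable ones, 21.3% were called higher and 4.41% lower. Of the other ionotropic subunits (delta, kainate and Grin3 types), 8 of 9 listed genes were measured by 9 probe sets, of which 2 varied and none was called. Their largest difference was that of the kainate subunit gene Grik4, at 0.04 with a standard error of 0.07. Of the auxiliary proteins, which control gating and surface delivery of AMPA and kainate receptors, 14 of 17 genes were measured by 18 probe sets, 3 varied and none was called, with Nptxr, a receptor for neuronal pentraxins, at -0.09 (standard error 0.10). The 7 measured of 8 metabotropic receptors had 12 probe sets, 2 of them variable and none called, and Grm3 differed by 0.13 (standard error 0.12).

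Of the scaffold and trafficking proteins, 22 of 24 genes were measured by 47 probe sets, of which 9 varied, 2 were called higher and 1 lower. The 2 higher calls among the 9 variable probe sets were near the share of 21.3% in all variable ones. Both calls of higher values were for Nsf, an ATPase that binds the product of Gria2 and keeps AMPA receptors at the surface. At 1369690_at it was 11.37, 11.14, 10.84, 10.87 and 10.65 in C1 to C5 and 11.19, 10.81, 10.71, 10.59 and 10.53 in P1 to P5, with a difference of 0.21 and a standard error of 0.17 (rank products FDR 0.0312), and at 1369689_at the difference was 0.17 (standard error 0.12, FDR 0.0488). Another probe set of Nsf, 1372528_at, was near-constant, read 11.22 in each group and was not called. Homer1, a postsynaptic scaffold that links receptors to calcium stores, had 4 variable probe sets with differences of -0.23, -0.16, 0.01 and 0.05, and the first, 1370997_at, was called lower (standard error 0.16, FDR 0.0241). Its values were 6.62, 6.98, 7.40, 7.15 and 7.33 in C1 to C5 and 7.01, 7.47, 7.46, 7.43 and 7.26 in P1 to P5. C1 was the lowest rat there and at 1370454_at (difference -0.16), with 8.01 against 8.72 to 9.18 in the other rats. The part of C1 in these differences was not tested. Another probe set of Homer1, 1368318_at, was near-constant, read 9.95 in each group and was not called. The median difference over the variable probe sets was 0.00631 for the other ionotropic subunits, -0.053 for the auxiliary proteins, 0.0533 for the scaffolds and 0.0795 for the metabotropic receptors, against 0.0657 for all variable probe sets. No probe set of these lists passed limma.

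**Figure D5:**
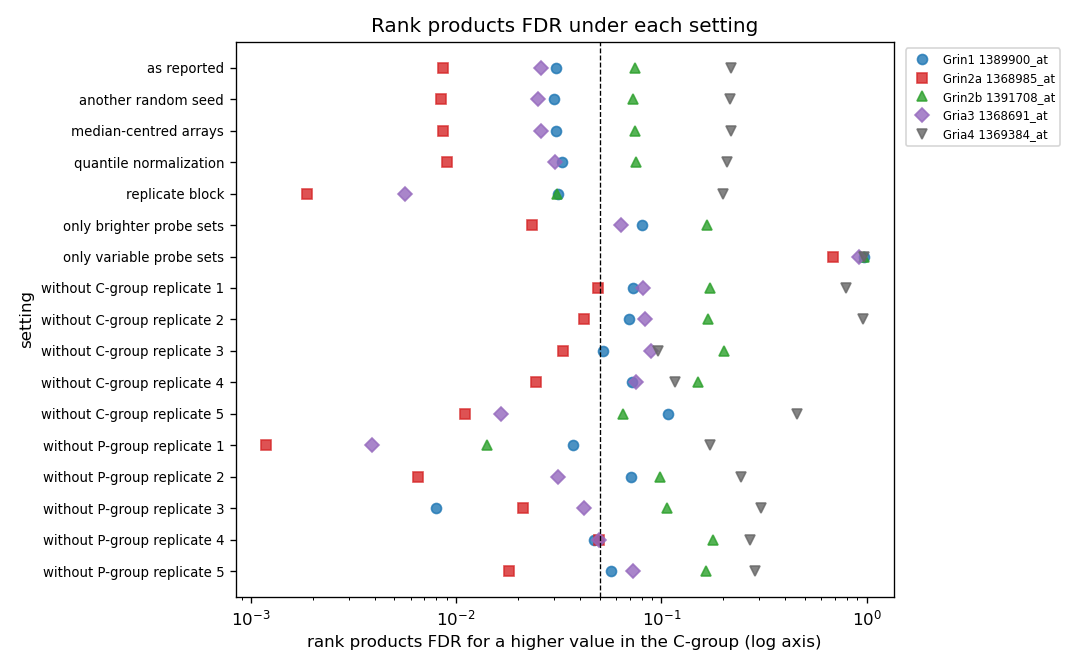
Rank products FDR for a higher value in the C-group (horizontal log axis, dashed line at 0.05) under each setting (rows) for the 5 variable probe sets with a positive difference. Grin2a stays left of the line in every row but that of the variable probe sets alone (0.689), and Gria3 1368691_at and Grin1 cross it in several rows.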

How the data were processed

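Hippocampal mRNA of 5 C-group and 5 P-group rats was measured on 1 Affymetrix rat expression array each. The deposited values are log2 expression from qFARMS, run by the authors in R 2.7.2, and were used as they stand; scanner files were not used here. Of 31099 probe sets, 57 controls were left out. Names came from the platform annotation, and all 18 probe sets had the same symbol in RefSeq (GRCr8). Rank products, the method of the study, was run without pairing, with 100 permutations within arrays, in numpy 2.4.6 under Python 3.11.15, and its FDR varies with the random draw. The study states neither the pairing nor the number of permutations, so both were chosen here. limma 3.58.1 in R 4.3.3 (lmFit, eBayes, Benjamini-Hochberg over 31042 probe sets) gave standard errors and adjusted p-values. Both were tested on simulated data with independent noise at each probe set. In these arrays many probe sets varied together, so that test does not bear on the calls here. With 5 rats in each group, their number limits the precision. Separate litters are not stated, so limma p-values weigh a difference only against the spread between these rats. Rank products permuted values within arrays, so its FDR is not set against that spread.

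The members and the lists of pathway genes and of markers (neurons, pyramidal and granule cells, interneurons, astrocytes, oligodendrocytes and their precursors, microglia, choroid plexus, pineal and photoreceptor cells, thalamus, meninges) were chosen with earlier results of these data known. All probe sets of the 9 genes are named, of each pathway list those called and the variable gene with the largest difference, and the 3 closest followers of each variable probe set. Aqp4, Gfap, Prox1 and Camk2a were named as examples after their values were seen. Alternatives changed the normalization, filter, pairing, variance model, random seed, unit and rats used. Correlations are descriptions. Behavior and morphology were not analysed here.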

Additional observations from a re-analysis of the deposited data

Results flagged for a closer look

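A rat far from the other 4 of its group was looked for in the 12 sets of 5 values at the variable probe sets, by the gap to the nearest rat as a share of the range (Dixon's critical value 0.71), and 4 were found, where chance gives about 1 in 20. C5 was high at Grin1 1389900_at, with 8.22 against 8.03 in the next rat (0.817 of the range). P1 was high at Grin2b 1391708_at, with 8.98 against 8.60 (0.792 of the range), and at Gria3 1368691_at, with 9.37 against 8.75 (0.727 of the range). C1 was low at Gria3 1376892_at, with 10.12 against 10.66 (0.75 of the range). The P1 values are not independent of each other, as these probe sets followed the same order of rats.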

How the results depend on the processing

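No probe set of the 9 genes was called lower by rank products, and none passed limma, under any alternative run. Of the 3 called higher, 1 (Grin2a) was called when dimmer probe sets were left out, and 0 among the 2904 variable ones. Over the sets with 1 rat left out the count ran from 1 to 4, with 1 (Grin2a) without C1, C2, C3, C4 or P5 and 4 without P1. The difference at Gria3 1376892_at was 0.0974 for the mean of both Gria3 probe sets and ran from -0.0812 to 0.0978 with 1 rat left out. All other differences at the variable probe sets kept their sign in every alternative. Gria4 1369384_at was among the dimmer ones left out. With the replicate block, rank products gave FDRs of 0.00187, 0.00565, 0.0309 and 0.0315 for Grin2a, Gria3 1368691_at, Grin2b and Grin1. The labels give no shared litter or batch for rats of 1 number, so the numbers were not taken as pairs. Deviations of rats of 1 number correlated at 0.277, -0.011, -0.389, 0.485 and 0.451 for numbers 1 to 5. These values cannot decide on pairing, as rats of unlike numbers were not compared. Over the whole array, 620 higher and 129 lower calls became 912 and 338 with the block, 157 and 38 without dimmer probe sets, and 9 and 0 among variable probe sets, and ran from 79 (without C1) to 789 (without P1) and from 10 (without P4) to 221 (without C3) with 1 rat left out. The 915 probe sets with an unadjusted limma p under 0.05 numbered 50 after median centring and 1787 after quantile normalization.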

Other observations

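Markers of other cells and tissues were also measured, where rank products called 2.0% of all probe sets higher and 0.416% lower, or 21.3% and 4.41% of the variable ones. Meningeal genes had 9 of 15 probe sets called higher in the C-group by rank products, among them Igf2 (10 of the 15 were variable). Choroid plexus genes had 9 of 10 (9 variable), and neither list had a lower call. The variable meningeal probe sets deviated on average by 0.41, 0.36, -0.25, -0.14 and 0.34 in C1 to C5. In P1 to P5 they deviated by -0.17, -0.03, 0.32, -0.34 and -0.5. Pineal and photoreceptor genes had 4 of 7 called lower, a set that was high in P2 alone (2.50 log2 units above the mean, against -0.33 to -0.21 in the other rats). Astrocyte genes had 3 of 13 called higher (Aqp4, Gja1 and Slc1a3; 4 of the 13 were variable), neuron genes 2 of 14 (Map2 and Nefl; 6 variable) and interneuron genes 1 of 6 (Gad2; 3 variable). Of the pyramidal and granule cell genes, 1 of 10 probe sets (Neurod6) was called lower, with 9.82 in C2 against 10.43 to 10.72 in the other rats. None was called of oligodendrocytes, their precursors, microglia and thalamus, with 10, 4, 6 and 15 probe sets. The oligodendrocyte list ran against Grin2a, Grin2b, Gria3 1368691_at and Gria4 over the 10 rats, with r of -0.65, -0.76, -0.70 and -0.86. Without the 2 rats farthest from the median these were -0.70, -0.34, -0.36 and -0.83, so those of Grin2b and Gria3 rest in part on these rats. The pyramidal and granule cell list ran against Gria4, with r of -0.84, and -0.58 without 2 rats. None of these lists held a probe set past limma.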
